A study of Mus musculus with 3 samples.

Results

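The enzymes that write, maintain and remove DNA methylation were followed in mouse embryonic stem (ES) cells as 8 genes, chosen by symbol among the 52636 genes of the count tables: Dnmt1, Uhrf1, Dnmt3a, Dnmt3b, Dnmt3l, Tet1, Tet2 and Tet3. All 8 had counts in each of the 3 replicates, and all 8 passed the filter on low counts in every fit. The cells were JM8.N4 mouse ES cells of the C57BL/6N strain edited so that the cohesin subunit RAD21 is fused to an auxin-induced degron (AID), a tag that lets the cell destroy the protein when the hormone auxin (IAA) is present. Cultures were grown without feeder cells in medium with 15% serum, 1000 units of leukaemia inhibitory factor (LIF) and the 2i inhibitors PD0325901 at 1 μM and CHIR99021 at 3 μM. Single cells were sorted into 96-well plates and profiled by Smart-SCRB, which counts unique molecular identifiers (UMIs), 1 for each captured transcript 3′ end. Control cells, which carry the degron as well, were compared with cells given 500 μM auxin for 6 h, and the experiment was carried out 3 times.

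DNA methylation is the addition of a methyl group to cytosine, in mammals mostly where a G follows it. Dnmt3a and Dnmt3b are the de novo methyltransferases, which place new marks, and Dnmt3l is a catalytically inactive partner that assists them. Dnmt1 copies marks onto the new DNA strand after replication, to which Uhrf1 brings it by binding hemimethylated DNA. The Tet dioxygenases oxidise 5-methylcytosine and thereby open the way to its removal. ES cells kept in 2i are known for low methylation and low de novo enzyme levels, and the passage from the naive to the formative state, the step on the way to lineage commitment, is known for a rise of both.

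Cells with more than 2600 detected genes were used, which gave 168, 371 and 85 control cells in replicates 1, 2 and 3 and 169, 290 and 84 cells treated with auxin. In replicate 3 these are the plates whose condition is not in dispute. The 1167 cells filled 14 plates, each of 1 condition, and the summed UMI totals per replicate and condition ran from 6064936 to 50448320. Levels are given in CPM, the UMIs of a gene summed over cells and scaled so that all genes of those cells come to 1000000. A UMI stands for 1 molecule whatever the transcript length, so levels of different genes were set side by side without a length correction. How well each gene is captured and counted was not tested, so ratios between genes are ratios of UMIs and not of molecules. The labels name no separate cultures within a replicate, each replicate is called 1 culture here, and replicate, culture and sequencing cannot be told apart, and a p over plates measures the spread between plates only, which may be technical. The 96 well barcodes of replicates 2 and 3 were the same and 0 were shared with replicate 1. Rad21 was at 20.9, 31.2 and 42.4 CPM in the control cells of replicates 1, 2 and 3 and at 19.3, 34.0 and 45.2 CPM after auxin; the degron acts on the protein, so the transcript is no check of the depletion.

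The table of replicate 1 differed from those of replicates 2 and 3 gene by gene. At 50 CPM or more in control cells, 93 genes were over 20 times higher in replicate 1 than in both others, 61 of them listed at 0 there, and 36 genes were over 20 times higher in replicates 2 and 3 than in replicate 1. Sox2 was at 155 CPM in the control cells of replicate 1 and listed at 0 in replicates 2 and 3, and Pou5f1 was at 273, 8.40 and 12.5 CPM. Gapdh, named after its values were seen, was at 1905, 17.2 and 17.5 CPM. No member was among these genes (0 of 8), the source of the difference was not tested, and replicate 2 was therefore also compared with replicate 3 alone. Of the 8 ES cell markers, 8 were above 0 in replicate 1 and 7 in the others. The summed level of 6 fibroblast markers lay between 3.12 and 27.1 CPM and that of 6 primitive endoderm markers between 5.10 and 15.9 CPM. From control to auxin, the fibroblast sum went from 4.94 to 3.12, 13.8 to 27.1 and 16.7 to 11.5 CPM in replicates 1, 2 and 3. That of 6 markers of 2-cell-like cells went from 0.499 to 17.9, 0.285 to 0.0991 and 0.330 to 5.38 CPM.

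Stretches of DNA just upstream of the start sites of 4 members are printed because these are the members on which the comparisons below turn: Dnmt3a and Dnmt3b, which were higher together in replicate 2, Tet2, which was lower there, and Uhrf1, whose level differed most with the G1/S markers. All 8 members matched the RefSeq promoter table (build GRCm38.p6), and each run gives the 250 bases before an annotated start, 5′ to 3′ on the strand of the gene, with none of them in an exon of that gene. Capitals mark GC boxes (GGGCGG on either strand) and, in Uhrf1, the E2F motif TTTCGCGC.
Dnmt3a, chr12:3806730-3806979, plus strand: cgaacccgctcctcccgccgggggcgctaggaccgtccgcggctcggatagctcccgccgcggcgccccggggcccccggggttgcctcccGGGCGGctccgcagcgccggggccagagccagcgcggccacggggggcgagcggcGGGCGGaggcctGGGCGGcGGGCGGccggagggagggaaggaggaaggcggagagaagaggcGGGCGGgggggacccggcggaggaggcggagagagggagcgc
Dnmt3b, chr2:153649199-153649448, plus strand: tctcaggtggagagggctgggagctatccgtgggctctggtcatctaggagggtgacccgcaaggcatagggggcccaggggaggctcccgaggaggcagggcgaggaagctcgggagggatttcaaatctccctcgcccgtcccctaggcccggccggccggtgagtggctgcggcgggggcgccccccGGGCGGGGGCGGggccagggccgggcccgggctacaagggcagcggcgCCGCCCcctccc
Tet2, chr3:133544391-133544640, minus strand: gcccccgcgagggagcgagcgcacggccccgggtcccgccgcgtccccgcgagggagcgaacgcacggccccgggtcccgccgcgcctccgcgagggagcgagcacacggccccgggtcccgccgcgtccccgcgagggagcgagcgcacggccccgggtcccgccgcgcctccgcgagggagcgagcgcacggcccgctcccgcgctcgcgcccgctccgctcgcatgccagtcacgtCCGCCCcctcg
Uhrf1, chr17:56304063-56304312, plus strand: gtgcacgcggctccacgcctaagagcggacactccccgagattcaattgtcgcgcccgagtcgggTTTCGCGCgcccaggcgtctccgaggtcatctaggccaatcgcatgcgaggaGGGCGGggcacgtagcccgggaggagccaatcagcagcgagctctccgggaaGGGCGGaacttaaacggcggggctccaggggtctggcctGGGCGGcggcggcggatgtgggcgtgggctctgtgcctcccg

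The 4 windows were rich in CpG, the dinucleotide that these enzymes modify. They held 38, 21, 51 and 30 CpG in the order printed, against a median of 6 over the 32851 windows of the table, and their GC content was 82.4%, 75.2%, 83.6% and 69.6% against a median of 52.4%. GC boxes numbered 5 in Dnmt3a, 3 in Dnmt3b, 1 in Tet2 and 3 in Uhrf1, and 32.7% of all windows held at least 1. The E2F motif of Uhrf1 began 185 bases before this start, and TTTCGCGC stood on either strand in 0.256% of all windows. Any of the 4 E2F spellings searched (TTTGGCGC, TTTCCCGC, TTTCGCGC and TTTGCCGC) stood in 1.86% of all windows and in 0 of the printed windows of Dnmt3a, Dnmt3b and Tet2. The motif was not particular to Uhrf1 among the members: 1 of the 3 windows of Dnmt1 held TTTCGCGC too, and the other of the 2 windows of Uhrf1 held no E2F spelling. A match of letters is a description and not a binding site.

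In mm10, with the GENCODE annotation, Dnmt1 lies at chr9:20907209-20959888 on the minus strand, Uhrf1 at chr17:56303321-56323486 on the plus strand, Dnmt3a at chr12:3806007-3914443 on the plus strand, Dnmt3b at chr2:153649450-153687730 on the plus strand and Dnmt3l at chr10:78041947-78063622 on the plus strand. Tet1 (chr10:62804570-62908996), Tet2 (chr3:133463679-133545139) and Tet3 (chr6:83362373-83459084) are on the minus strand. Exons of Dnmt3l overlap exons of Aire on the opposite strand. Whether the counting used strand is not given in the sources used here, so reads of the overlap could not be assigned. Aire was at 0.943, 14.1 and 11.5 CPM in the control cells of replicates 1, 2 and 3, well under Dnmt3l in each. Exons of Dnmt3a and Tet2 overlap antisense transcripts (Dnmt3aos and Gm42567) that stayed under 1 CPM over all cells, at 0.0736 and 0.575 CPM.

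The maintenance pair was expressed in all cultures, Uhrf1 above Dnmt1. Dnmt1 was at 94.8, 144 and 141 CPM in the control cells of replicates 1, 2 and 3 (126 ± 27.4, SD, n = 3). Uhrf1 was at 229, 206 and 347 CPM (260 ± 75.6, SD, n = 3). Dnmt1 was lowest in replicate 1, with 1.52 times that level in replicate 2, and Uhrf1 was highest in replicate 3, with 1.69 times its level in replicate 2. With TMM scaling, the kind the tests use, Dnmt1 was at 114, 134 and 126 CPM in replicates 1, 2 and 3, a smaller difference. Uhrf1 stood above Dnmt1 on every control plate, at 194 to 347 CPM against 80.5 to 178 CPM.

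The de novo enzymes differed far more between cultures. Dnmt3a was at 11.4 CPM in replicate 1, 636 CPM in replicate 2 and 36.3 CPM in replicate 3 (228 ± 354, SD, n = 3). Dnmt3b was at 31.1, 608 and 49.1 CPM (229 ± 328, SD, n = 3). Dnmt3l was at 39.0, 177 and 120 CPM (112 ± 69.2, SD, n = 3). The first 2 were low in replicates 1 and 3 and the most abundant members in replicate 2, where Dnmt3a was 55.7 times its level in replicate 1 and 17.5 times its level in replicate 3, and Dnmt3b 19.5 and 12.4 times. Dnmt3l moved less, with 4.53 times its replicate 1 level and 1.47 times its replicate 3 level. Dnmt3a and Dnmt3b together made up 31.0%, 89.6% and 37.8% of the summed CPM of the 3 methyltransferases Dnmt1, Dnmt3a and Dnmt3b.

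Among the demethylating enzymes, Tet1 was the most abundant in every replicate and Tet2 changed place with the culture. Tet1 was at 109, 219 and 216 CPM in control cells (181 ± 62.5, SD, n = 3). Tet2 was at 61.1, 19.1 and 78.3 CPM (52.9 ± 30.4, SD, n = 3). Tet3 was at 5.83, 21.8 and 6.43 CPM (11.3 ± 9.04, SD, n = 3). Tet2 was lowest and Tet3 highest in replicate 2, where Tet2 fell below Tet3. The ratio of Tet1 to Tet2 was 1.79, 11.4 and 2.76, and Tet2 gave 34.7%, 7.36% and 26.1% of the summed Tet CPM.

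**Figure D1:**
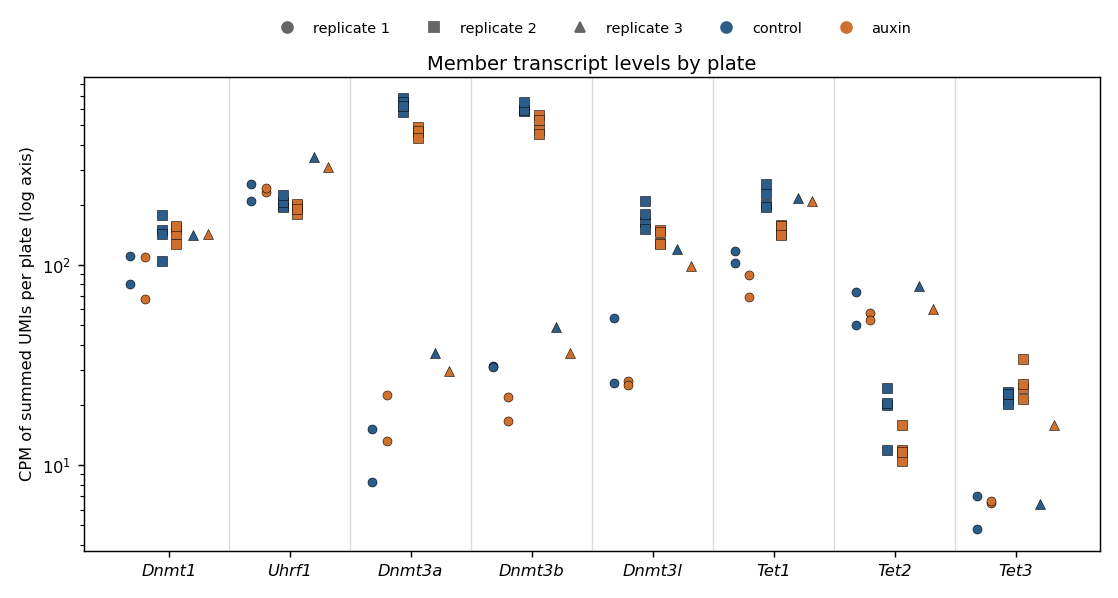
Level of each member on each of the 14 plates, in CPM of the summed UMIs on a log axis, with the replicate shown by symbol and the condition by colour. The 8 plates of replicate 2 (squares) lie above the 6 others shown for Dnmt3a, Dnmt3b, Dnmt3l and Tet3 and below them for Tet2. A disputed plate of replicate 3, not shown, had Dnmt3l at 150 CPM, within the range of replicate 2.

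The order of the members was alike in replicates 1 and 3 and different in replicate 2. In the control cells of replicate 1 it ran Uhrf1, Tet1, Dnmt1, Tet2, Dnmt3l, Dnmt3b, Dnmt3a and Tet3, and in replicate 3 only Tet2 and Dnmt3l changed places. In replicate 2 it ran Dnmt3a, Dnmt3b, Tet1, Uhrf1, Dnmt3l, Dnmt1, Tet3 and Tet2. Neighbours were often not separated by the spread between plates. In replicate 2 the 4 control plates of Dnmt3a (583 to 680 CPM) and Dnmt3b (589 to 656 CPM) overlapped, as did those of Tet1 (196 to 254) and Uhrf1 (194 to 223), of Dnmt3l (152 to 209) and Dnmt1 (104 to 178), and of Tet3 (20.1 to 23.1) and Tet2 (11.8 to 24.3). In replicate 1 the 2 control plates of Uhrf1 (208 and 253 CPM) stood above those of Tet1 (102.2 and 118), which overlapped Dnmt1 (80.5 and 111). Replicate 3 had 1 control plate with a settled condition, so no such spread was available there.

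The same differences appeared in the share of cells with a member transcript. Each cell was thinned to 20000 UMIs for this purpose, since the median UMI count per cell was 104442.5, 143842 and 72317 in the control cells of the 3 replicates, and intervals are exact 95% binomial intervals that cover counting error only. Dnmt3a was found in 14.9% of 168 control cells of replicate 1 (interval 9.87 to 21.2), 96.4% of 363 cells of replicate 2 (94.0 to 98.1) and 25% of 84 cells of replicate 3 (16.2 to 35.6). Dnmt3b was found in 29.2%, 93.4% and 39.3% of them, and Dnmt3l in 25.6%, 74.4% and 54.8%. Most cells of replicate 2 thus held de novo enzyme transcripts, while most cells of replicates 1 and 3 had no UMI of Dnmt3a at this depth, and most had none of Dnmt3b. Without thinning, the Dnmt3a shares were 22.6%, 97.3% and 54.1%.

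Uhrf1 and Tet1 were found in most cells of every culture. The thinned share of Uhrf1 was 81.0%, 87.1% and 95.2% in replicates 1, 2 and 3, that of Tet1 72.6%, 88.7% and 88.1%, and that of Dnmt1 55.4%, 75.8% and 79.8%. Tet2 was found in 50.0%, 16.3% and 54.8% of the cells, and Tet3 in 6.55%, 25.1% and 9.52%. Among 8 genes of other tissues, taken as a measure of background, the highest share was 6.55%, 2.48% and 13.1%. The shares of Tet3 in replicates 1 and 3 were at or below that level and are read as background, while its share in replicate 2 was above it. Unthinned, Tet2 was found in 70.2%, 34.5% and 77.6% and Tet3 in 14.3%, 46.9% and 18.8% of control cells.

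**Figure D2:**
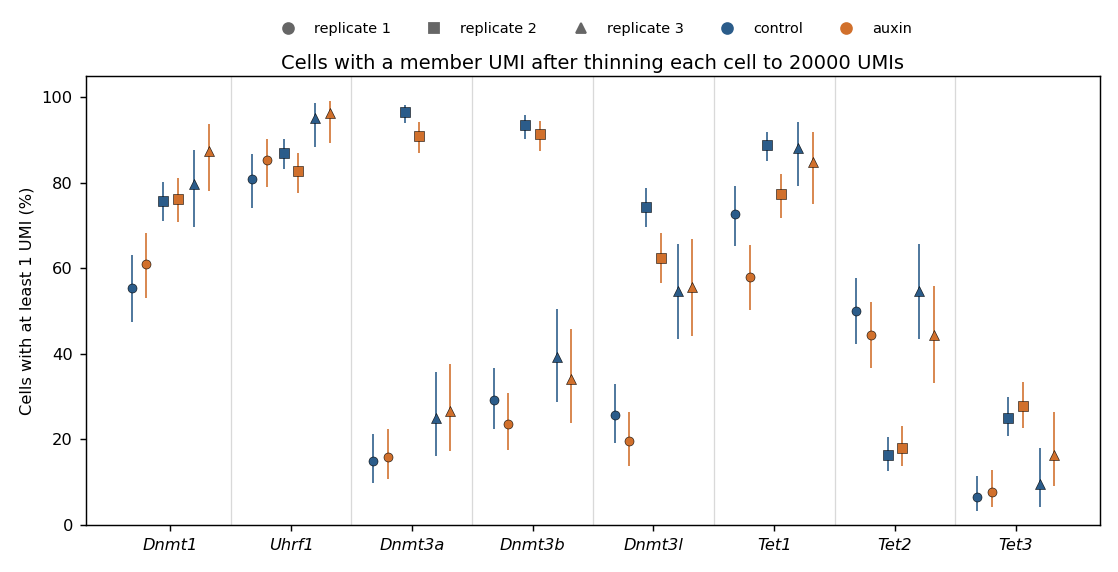
Percent of cells with at least 1 UMI of each member after thinning every cell to 20000 UMIs, by replicate (symbol) and condition (colour), with exact 95% binomial intervals. Dnmt3a and Dnmt3b stand above 90% in replicate 2 and below 40% in replicates 1 and 3, and Tet2 is lowest in replicate 2.

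Expression was uneven from cell to cell even where nearly all cells were positive. In replicate 2 control cells the coefficient of variation of the CPM per cell was 0.711 for Dnmt3a and 0.717 for Dnmt3b, with medians of 562 and 521 CPM and 90th percentiles of 1137 and 1101 CPM. For Tet2 in the same cells it was 3.67, with a median of 0 and a 90th percentile of 57.3 CPM. Positive cells held a median of 71 Dnmt3a UMIs and 5 Tet2 UMIs before thinning. Uhrf1 was among the evenest members, with a coefficient of variation between 0.616 and 0.825 in the control cells of the 3 replicates.

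How far the members followed the culture was tested by setting the 4 control plates of replicate 2 against the 3 control plates of replicates 1 and 3. Dnmt3a was higher by 4.88 on the log2 scale (SE 0.39, edgeR adjusted p = 0.000212) and Dnmt3b by 3.84 (SE 0.13, adjusted p = 1.43e-05). Tet3 was higher by 1.61 (SE 0.26, adjusted p = 0.00461) and Dnmt3l by 1.28 (SE 0.36, adjusted p = 0.0421). Tet2 was lower, at -2.04 (SE 0.25, adjusted p = 0.00122), as was Uhrf1, at -0.59 (SE 0.12, adjusted p = 0.0119). Tet3 was thereby set against replicates in which its share of cells was read as background. The size of the Uhrf1 difference depends on the scaling. In control cells of replicates 1 and 2, Uhrf1 was at 229 and 206 in plain CPM. With TMM scaling, the kind the tests use, it was at 276 and 192 CPM. Of the 8 members 4 rose and 2 fell, where 16.6% of the 16641 genes tested were called (6.72% higher and 9.87% lower). Dnmt1 (0.17, 95% interval -0.20 to 0.54) and Tet1 (0.42, 95% interval 0.08 to 0.76, adjusted p = 0.141) did not pass. These intervals take the normal distribution for the SE and are narrower than exact ones over so few plates. DESeq2 called the same 6 members, with 24.6% of all genes. The median over the members was 0.85 against 0.10 over all genes tested.

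The Dnmt3l call was the least firm. It was lost on leaving out any 1 of the replicate 2 control plates (adjusted p between 0.0883 and 0.111) or the first control plate of replicate 1 (adjusted p = 0.121), with fold changes between 1.19 and 1.33 on the log2 scale. The number of genes called depended on the single control plate of replicate 3, from 2761 with it to 9883 without it. The marker lists that define the state moved along with the members: 11 of 13 naive genes were lower in replicate 2 (median -2.46 on the log2 scale) and 8 of 14 formative genes were higher (median 2.06). The summed naive markers were at 2675, 641 and 2713 CPM in the control cells of replicates 1, 2 and 3, and the summed formative markers at 277, 998 and 143 CPM.

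In replicate 2 against replicate 3 alone, without the table of replicate 1, 6 of the 8 members were again called (14.3% of 19181 genes tested were, 6.99% higher and 7.29% lower). Dnmt3a was higher by 4.19 (SE 0.18, adjusted p = 1.76e-06), Dnmt3b by 3.69 (SE 0.15, adjusted p = 1.76e-06), Tet3 by 1.82 (SE 0.30, adjusted p = 0.00328) and Dnmt3l by 0.61 (SE 0.18, adjusted p = 0.0447). Tet2 was at -1.97 (SE 0.29, adjusted p = 0.00166) and Uhrf1 at -0.69 (SE 0.12, adjusted p = 0.00476). The spread in this comparison came from the 4 plates of replicate 2, as replicate 3 had 1 plate. Tet1 was called against replicate 1 alone, at 0.64 (SE 0.13, adjusted p = 0.00222), and was at 0.08 (SE 0.16) against replicate 3.

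On the auxin plates, which are other cells of the same 3 cultures, replicate 2 differed from the others in the same members. Dnmt3a was higher by 4.18 (SE 0.22), Dnmt3b by 4.11 (SE 0.21), Dnmt3l by 1.30 (SE 0.37) and Tet3 by 1.24 (SE 0.31). Tet2 was at -2.46 (SE 0.19) and Uhrf1 at -0.70 (SE 0.10). These 6 passed the test (edgeR adjusted p between 3.08e-05 and 0.0435), where 18.7% of 16578 genes tested did (8.03% higher and 10.6% lower). Over both conditions, the 8 plates of replicate 2 did not overlap the 6 others for Dnmt3a, Dnmt3b, Dnmt3l and Tet3, which were higher (13.4% of 8712 genes were), and for Tet2, which was lower (7.92%). Dnmt3a ran from 432 to 680 CPM on them against 8.21 to 36.3 CPM elsewhere, Dnmt3b from 451 to 656 against 16.7 to 49.1, and Tet2 from 10.5 to 24.3 against 50.2 to 78.3. For Dnmt1, Uhrf1 and Tet1 the plates overlapped. The separation of Dnmt3l held only without the 2 disputed plates of replicate 3, of which 1 had Dnmt3l at 150 CPM, above the lowest auxin plate of replicate 2 (127 CPM). For the other 4 the disputed plates lay on the side of replicates 1 and 3, whichever their condition.

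**Figure D3:**
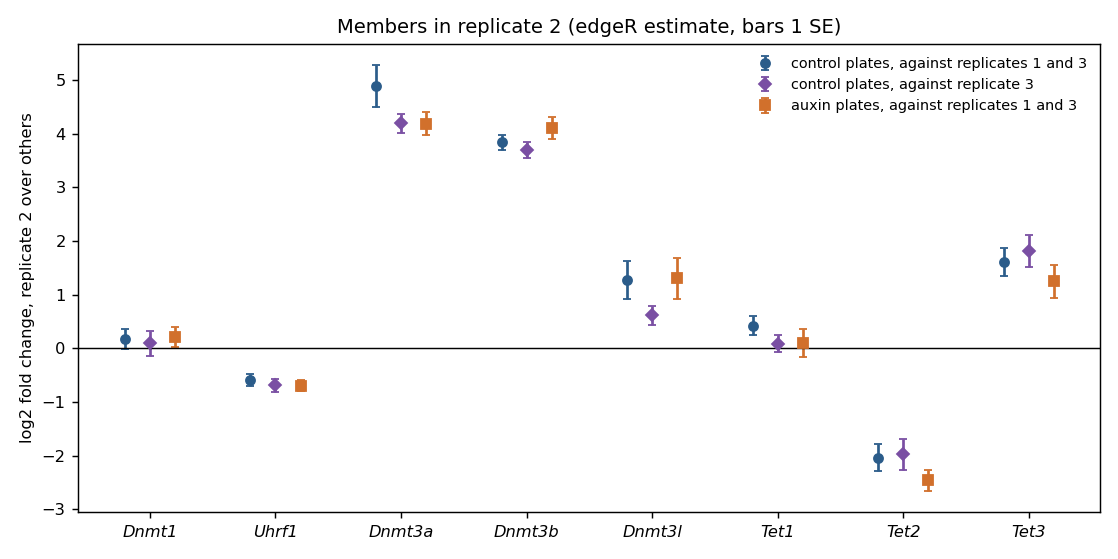
Fold change of each member in replicate 2 on a log2 scale, as edgeR estimates with bars of 1 SE, for control plates against replicates 1 and 3, control plates against replicate 3 alone, and auxin plates against replicates 1 and 3. Over the 3 comparisons Dnmt3a lies between 4.18 and 4.88, Dnmt3b between 3.69 and 4.11, Tet2 between -2.46 and -1.97, and Dnmt1 between 0.09 and 0.21.

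The other genes of the methylation pathway were called in both directions, in a comparison where 16.6% of all genes tested were called. Of 12 genes for readers of methylated or unmethylated CpG, 1 rose and 1 fell (median 0.18): Kdm2a, a demethylase that binds unmethylated CpG islands, was higher by 0.74 (SE 0.19, adjusted p = 0.0285), and Zfp57, which guards methylation at imprinted loci, was at -1.68 (SE 0.29, adjusted p = 0.00610). Of 14 base excision and demethylation genes tested, Gadd45g rose by 4.27 (SE 0.64, adjusted p = 0.00330) and Gadd45b was at -3.20 (SE 0.36, adjusted p = 0.000815), with a median of 0.04. Both encode stress-inducible proteins with a proposed part in DNA demethylation. Gadd45g was at 8.27, 145 and 1.32 CPM in the control cells of replicates 1, 2 and 3, and Gadd45b at 34.6, 4.20 and 28.4 CPM.

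Of 19 partners and regulators of the members, 3 rose and 3 fell (median -0.09), where 6.72% of all genes rose and 9.87% fell. Against replicate 3 alone 4 rose and 1 fell (median -0.19), and on the auxin plates 4 of 18 rose and 2 fell (median 0.02). Prdm14, which represses the de novo methyltransferase genes in naive ES cells, was at 109, 5.34 and 116 CPM (-4.62, SE 0.35, adjusted p = 0.000174). A link between Prdm14 and the levels of Dnmt3a and Dnmt3b was not tested. Cdca7, a partner of the remodeller HELLS in the maintenance of methylation, was higher by 0.80 (SE 0.13, adjusted p = 0.00450) and Lin28a, an RNA-binding protein, by 1.73 (SE 0.20, adjusted p = 0.000976). Cxxc5, a CXXC zinc finger protein, was at -2.18 (SE 0.40, adjusted p = 0.00812), and against replicate 3 alone at -0.82 (adjusted p = 0.0663). Of 15 genes for methyl donor and cofactor supply, Mat2b, a regulatory subunit of S-adenosylmethionine synthesis, rose by 0.87 (SE 0.14), while Tdh, the threonine dehydrogenase of mouse ES cells, was at -1.94 (SE 0.14) and Idh2, which makes the α-ketoglutarate that Tet enzymes use, at -1.99 (SE 0.14); the adjusted p were 0.00418, 0.000161 and 0.000151.

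Of 13 germline genes known to be silenced by methylation, Hormad1 rose and Dazl fell. The median of the germline list was -0.34, and it turned to 0.30 against replicate 3 alone (14 tested, 1 up and 2 down) and to 0.05 on the auxin plates (14 tested, 2 up and 1 down). Hormad1, a meiotic chromosome axis protein, was at 39.1, 164 and 82.6 CPM in the control cells of replicates 1, 2 and 3 (1.44, SE 0.20, adjusted p = 0.00214). Dazl, a germ cell RNA-binding protein, was at 15.1, 3.59 and 16.3 CPM (-2.35, SE 0.50, adjusted p = 0.0155). The state markers with the smallest adjusted p were Nanog (-3.34), Tfcp2l1 (-6.25), Tbx3 (-6.29) and Klf4 (-5.70) among naive genes and Utf1 (2.10), Lef1 (5.73) and Pou3f1 (5.22) among formative ones. Fgf5, a formative marker, was listed at 0 in replicate 1 and stood at 16.6 CPM in replicate 2 and 0.165 CPM in replicate 3. Of the cycle lists, 3 of 39 G1/S genes rose and 5 fell, and 19 of 53 G2/M genes rose and 1 fell (medians -0.13 and 0.36), against 6.72% of all genes higher and 9.87% lower. On the auxin plates 6 of the 53 G2/M genes rose and 8 fell (median 0.14), and 4 of the 39 G1/S genes rose and 4 fell.

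Over the 14 plates, Dnmt3a and Dnmt3b ran together and Tet2 against them. Pearson's r of log2(CPM + 1) was 0.985 between Dnmt3a and Dnmt3b, -0.894 between Dnmt3a and Tet2, -0.905 between Dnmt3b and Tet2, and 0.924 between Dnmt3a and Tet3. These are descriptions over plates that fall into 3 cultures, with the 8 of replicate 2 together. By the same measure, among 8712 genes with a mean of at least 10 CPM, those most like Dnmt3a were 4930447C04Rik (0.995), Lef1 (0.990) and Ebna1bp2 (0.989). For Dnmt3b they were Crabp2 (0.995), Pim2 (0.993) and Slc7a7 (0.991), and for Tet2 Zfp296 (0.984), Hspb8 (0.979) and Mpzl2 (0.976). Dnmt3l was closest to Phf21a (0.987), Gpc5 (0.981) and Btbd9 (0.981), and Tet3 to Zfp423 (0.973), Ccdc58 (0.973) and Wasf3 (0.970). The members that varied least had lower values: Dnmt1 with Fam193b (0.956), Atad5 (0.941) and Uspl1 (0.933), Uhrf1 with Fcgrt (0.964), Eif4a2 (0.958) and Mpv17l (0.950), and Tet1 with Daxx (0.959), Adam19 (0.958) and Rrn3 (0.955).

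Across single cells, Dnmt3a and Dnmt3b were compared within each replicate and condition. Spearman's rho of their thinned counts was 0.303 over 363 control cells and 0.339 over 277 auxin-treated cells of replicate 2, where 91.5% and 85.9% of the cells held both and independent shares would give 90.04% and 83.1%. In the 4 sets of replicates 1 and 3, where 2.96% to 13.1% of the cells held both against 3.78% to 9.82% from independent shares, it lay between -0.0552 and 0.147. Of the 28 pairs of members, 2 had a positive rho in 6 of 6 sets, Dnmt1 with Tet1 (0.0164 to 0.172) and Tet1 with Tet2 (0.0152 to 0.319), and 0 had a negative one in all 6. The cells of a set share a library, their depth differs, and these values are descriptions.

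The dependence on the cell cycle was examined by splitting the control cells of each replicate at the median of a G1/S score, the mean of 39 replication genes without any member. Uhrf1 was the member with the largest difference. In cells below and above the median, Uhrf1 was at 154 and 288 CPM in replicate 1, 178 and 224 CPM in replicate 2, and 280 and 412 CPM in replicate 3. Among auxin-treated cells it was at 195 and 274, 166 and 211, and 274 and 348 CPM. The upper cells were thus higher in 6 of 6 sets. The fold change was 0.62 on the log2 scale (SE 0.11), with an edgeR adjusted p of 0.280, so that it did not pass. edgeR called 0 of 15044 genes (0.0%), among them 0 of the 39 score genes, and 733 had an unadjusted p under 0.05. DESeq2 called 44 genes (0.292%) and Uhrf1 among them (0.61, adjusted p = 0.000445), and edgeR called it without the filter on low counts (0.64, adjusted p = 3.75e-05, 0.186% of genes called) and without replicate 2 (0.74, adjusted p = 0.00790, 0.163% of genes called).

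Spearman's rho between the Uhrf1 count and the G1/S score lay between 0.258 and 0.457 in the 6 sets of cells, all positive. The cells above the median also held more UMIs, with medians of 113662.5 against 89575.5 in replicate 1, 168698 against 112063 in replicate 2 and 73294.5 against 68864.5 in replicate 3, and the part of depth in the Uhrf1 values was not tested. None of the other 7 members passed either. Dnmt3a was at 0.43 (SE 0.18) and Tet1 at -0.24 (SE 0.11), with adjusted p of 0.936 for both, and Tet1 was lower in the upper cells in 5 of 6 sets. Dnmt1, whose protein acts with Uhrf1 at replication forks, was at 0.12 (SE 0.15) and higher in 4 of 6 sets.

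In the split by the G2/M score, edgeR called 39 of 15181 genes (0.257%, and 0.25% higher), 23 of the 53 score genes among those higher, and 0 of the 8 members, which DESeq2 (0.672%) did not call either. Their fold changes ran from -0.25 for Dnmt3a (SE 0.14) to 0.23 for Tet1 (SE 0.13). Uhrf1 was lower in the upper cells in 5 of 6 sets (-0.13, SE 0.10), while its rho with the G2/M score was positive in 4 of 6 sets (0.0141 to 0.232) and at -0.174 and -0.199 in the control and auxin-treated cells of replicate 3. Tet3, at or under the background share in 3 of the 6 sets, was at -0.16 (SE 0.31), at 6.01 against 5.68 CPM in replicate 1, 24.3 against 20.0 in replicate 2 and 7.06 against 5.95 in replicate 3, a difference within its error. Among auxin-treated cells it was at 9.47 against 4.37, 28.0 against 24.4 and 27.1 against 8.98 CPM, the last on 71 and 35 UMIs (-0.85, SE 0.33, edgeR adjusted p = 0.658). The upper cells were thus lower in 6 of 6 sets, of which the 3 at background carry no weight.

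The state markers were used in the same way within each culture. In the split by the naive score, edgeR called 0 of 15040 genes (0.0%, 492 at an unadjusted p under 0.05, 1 or 0.00665% by DESeq2). Tet2 was at 61.9 and 60.5 CPM below and above the median in replicate 1, 6.53 and 31.4 CPM in replicate 2, and 57.9 and 97.2 CPM in replicate 3. Among control cells the difference lay in replicates 2 and 3, and the fold change was 0.97 (SE 0.40, adjusted p = 0.998). Over both conditions Tet2 was higher in the upper cells in 5 of 6 sets. Without replicate 2 the fold change was 0.33 (SE 0.21), and without the filter on low counts Tet2 was called (0.99, adjusted p = 9.60e-05, 0.238% of genes called). Dnmt3b was at 32.0 and 30.4, 778 and 441, and 52.1 and 46.4 CPM (-0.39, SE 0.15), lower in the upper cells in 5 of 6 sets. Tet3 was at -0.61 (SE 0.30), lower in 6 of 6 sets of which 3 were at or under the background share, and Dnmt3l in replicate 2 went from 114 to 238 CPM. Spearman's rho with the naive score in replicate 2 was -0.429 for Dnmt3b, 0.421 for Dnmt3l and 0.255 for Tet2 over 363 control cells, and -0.254, 0.311 and 0.225 over 277 auxin-treated cells. In the 4 sets of replicates 1 and 3 it lay between -0.0736 and 0.129 for Dnmt3b, between -0.118 and -0.0395 for Dnmt3l and between -0.000342 and 0.239 for Tet2.

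In the split by the formative score, edgeR called 0 of 14976 genes (0.0%, 403 at an unadjusted p under 0.05, 2 or 0.0134% by DESeq2). Dnmt3b was at 28.3 and 34.0 CPM below and above the median in replicate 1, 444 and 729 CPM in replicate 2, and 35.5 and 62.7 CPM in replicate 3. It was higher in the upper cells of all 3 control sets and in 5 of 6 sets in all, the exception being the auxin-treated cells of replicate 1 (20.5 and 16.7 CPM). Its fold change was 0.60 (SE 0.13), with an adjusted p of 1.000 in edgeR and 0.0721 in DESeq2, and it was called without the filter on low counts (0.61, adjusted p = 0.000509, 0.114% of genes called). Spearman's rho between Dnmt3b and the formative score was 0.447 in the control and 0.467 in the auxin-treated cells of replicate 2, and between -0.0336 and 0.0665 in replicates 1 and 3. Dnmt3a was at 0.18 (SE 0.20) and likewise higher in 5 of 6 sets, with rho of 0.224 and 0.331 in the control and auxin-treated cells of replicate 2 and between -0.00564 and 0.234 in replicates 1 and 3. Dnmt1 was at -0.32 (SE 0.11). Uhrf1 was lower in the upper cells in 6 of 6 sets (-0.12, SE 0.08). The other members lay between -0.28 (Tet2, SE 0.26) and 0.28 (Tet3, SE 0.36).

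**Figure D4:**
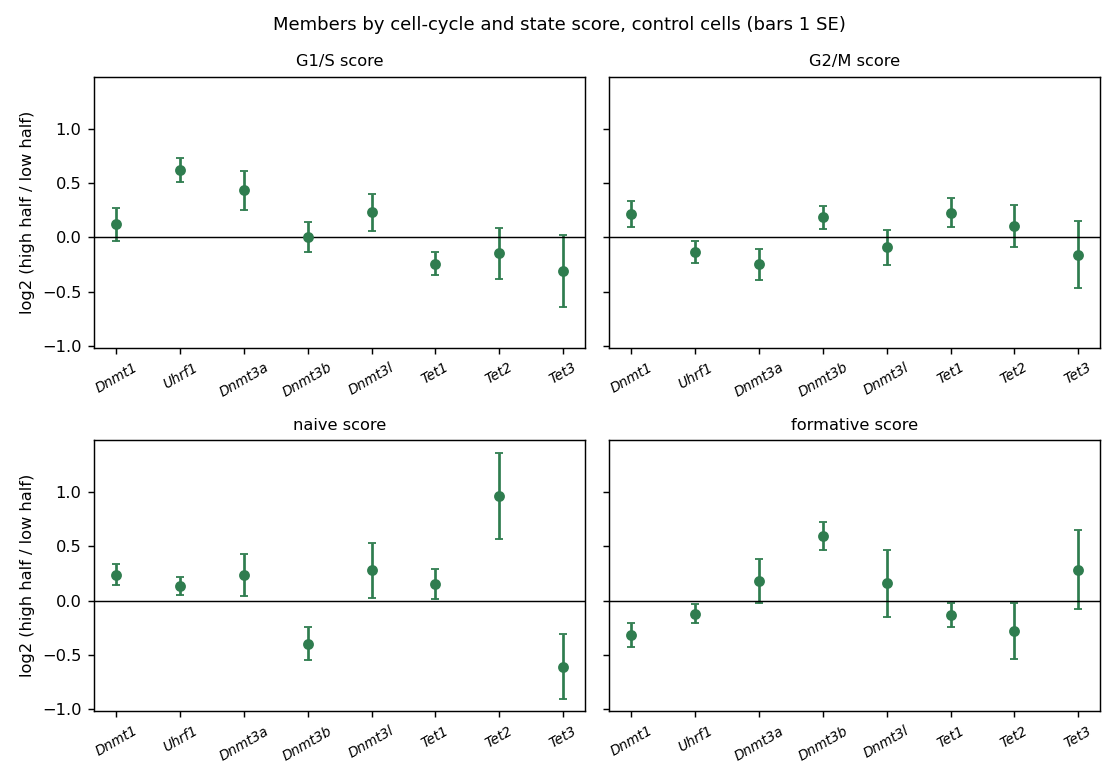
Log2 fold change of each member between control cells above and below the median of the G1/S, G2/M, naive and formative scores, as edgeR estimates over 3 replicates with bars of 1 SE. Uhrf1 stands out at 0.62 for the G1/S score, Tet2 at 0.97 for the naive score and Dnmt3b at 0.60 for the formative score, and none of these passed the adjusted test.

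The response to auxin was examined by comparing the control sums of the 3 replicates with the auxin sums. All cells carried the degron, so effects of cohesin loss and of auxin itself cannot be told apart. The study reported more cells in G2/M after cohesin removal, and the part of this in the member values was not tested. After auxin, Dnmt1 was at 89.6, 146 and 143 CPM in replicates 1, 2 and 3, and Uhrf1 at 237, 192 and 309 CPM. Dnmt3a was at 18.0, 461 and 29.5 CPM, Dnmt3b at 19.5, 506 and 36.5 CPM, and Dnmt3l at 25.8, 139 and 99.2 CPM. Tet1 was at 79.9, 150 and 208 CPM, Tet2 at 55.3, 12.5 and 60.3 CPM, and Tet3 at 6.55, 26.2 and 15.9 CPM. Against the control values, Dnmt3b, Dnmt3l, Tet1 and Tet2 were lower in 3 of 3 replicates and Tet3 was higher in 3 of 3, though its shares of cells in replicate 1 and in the control cells of replicate 3 were at or under the background share, while Dnmt1, Uhrf1 and Dnmt3a differed in sign. In replicate 3 this rests on leaving out the 2 disputed plates. With these plates included and their conditions exchanged against the deposited annotation, Dnmt3b was at 37.9 CPM in control and 42.4 CPM in auxin-treated cells of replicate 3, Dnmt3l at 106 and 126 CPM, Tet1 at 192 and 215 CPM and Tet2 at 66.2 and 69.0 CPM, so that these 4 were higher after auxin there. With the plates included as annotated, the same 4 were lower, at 48.3 and 31.9, 137 and 96.1, 219 and 189.7, and 77.5 and 57.5 CPM. Tet3 was higher after auxin either way, at 11.3 and 13.7 or 9.41 and 16.0 CPM.

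The changes per replicate were under 1 on the log2 scale with 1 exception. Dnmt3b was at -0.67, -0.27 and -0.43 in replicates 1, 2 and 3, Dnmt3l at -0.59, -0.35 and -0.28, Tet1 at -0.45, -0.55 and -0.05, and Tet2 at -0.14, -0.62 and -0.38. Tet3 was at 0.17, 0.27 and 1.30, the last from 39 control and 106 auxin UMIs. Dnmt3a went from 0.65 in replicate 1, on 206 and 346 UMIs, to -0.46 and -0.30. edgeR on the sums per replicate and condition called 0 of 17514 genes (0.0%) and none of the 8 members, with 33 genes at an unadjusted p under 0.05 and 0 called by DESeq2 (66 unadjusted). The SE in this fit carries the difference between cultures and was 1.64 for Dnmt3a and 1.47 for Dnmt3b, on fold changes of -0.45 and -0.33. The median over the members was -0.31, against 0.00 over all genes tested, and it was -0.16 with the disputed plates exchanged. As this fit leaves the differences between replicates in its error, its lack of calls says nothing about the size of the changes.

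With the replicate as a block, Dnmt3b was at -0.46 (SE 0.11, adjusted p = 0.628), Dnmt3l at -0.42 (SE 0.12, adjusted p = 0.697), Tet2 at -0.39 (SE 0.14, adjusted p = 0.775), Tet1 at -0.37 (SE 0.13, adjusted p = 0.771) and Tet3 at 0.51 (SE 0.27, adjusted p = 0.853). edgeR then called 3 genes (0.0171%) and 0 members, of which 4 had an unadjusted p under 0.05, as had 1036 genes. For the members nearest 0 the 95% intervals were -0.22 to 0.17 for Dnmt1, -0.25 to 0.08 for Uhrf1 and -0.46 to 0.29 for Dnmt3a. These intervals take the normal distribution for the SE and are narrower than exact ones over so few sums. DESeq2 with the block called 57 genes (0.325%, and 0.251% lower), Dnmt3b among them (-0.48, SE 0.13, adjusted p = 0.0463). With plates as units and the replicate as a block, where p measures the spread between plates, 235 of 15640 genes were called (1.5%, and 0.889% lower) and 2 members: Dnmt3b (-0.42, SE 0.08, adjusted p = 0.0182) and Tet1 (-0.48, SE 0.09, adjusted p = 0.0142).

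These calls depended on the 2 disputed plates of replicate 3. In the edgeR fit with the block, the members at an unadjusted p under 0.05 remained 4 in number with the plates as annotated and came to 0 with the plates exchanged, where Dnmt3b was at -0.28 (SE 0.15, adjusted p = 0.985). DESeq2 with the block called 3 members as annotated (Dnmt3b, Dnmt3l and Tet1, 0.554% of all genes) and 0 exchanged (0.0113%). With plates as units, the same 3 were called as annotated (1.92%) and 0 exchanged (0.0516%), where Dnmt3b was at -0.30 (SE 0.11, adjusted p = 0.286) and Tet1 at -0.38 (SE 0.10, adjusted p = 0.118). These last 2 kinds of fit were added after the data had been seen.

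**Figure D5:**
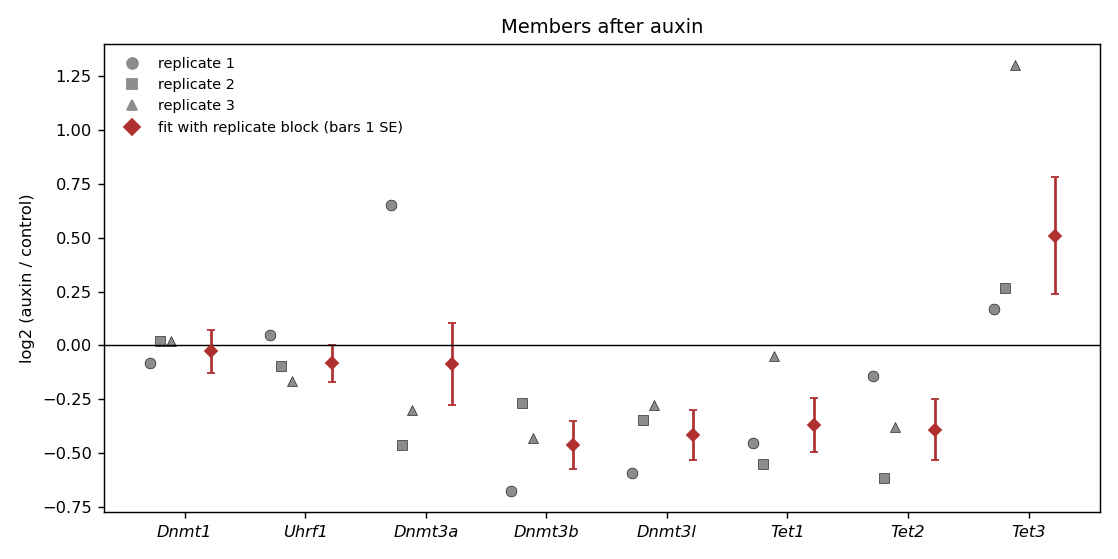
Log2 ratio of auxin-treated to control CPM for each member in replicates 1, 2 and 3 (grey symbols) and the edgeR estimate with the replicate as a block (red, bars 1 SE). With the 2 disputed plates left out, Dnmt3b, Dnmt3l, Tet1 and Tet2 lie below 0 in all 3 replicates and Tet3 above 0 in all 3. With these plates exchanged, the replicate 3 values would be 0.16 for Dnmt3b, 0.25 for Dnmt3l, 0.16 for Tet1 and 0.06 for Tet2.

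Single plates showed where the auxin differences were separated. In replicate 2 the 4 auxin plates lay below the 4 control plates without overlap for Dnmt3a (432 to 487 against 583 to 680 CPM), Dnmt3b (451 to 562 against 589 to 656), Dnmt3l (127 to 150 against 152 to 209) and Tet1 (141 to 158 against 196 to 254). Of 8712 genes, 6.92% lay lower in that way and 11.1% higher. In replicate 1, with 2 plates against 2, Dnmt3b (16.7 and 22 against 30.9 and 31.4 CPM) and Tet1 (68.9 and 89.6 against 102.2 and 118 CPM) were lower without overlap, as were 12.4% of the genes. Median UMIs per cell differed between the conditions as well, at 187088 after auxin against 143842 in the control cells of replicate 2, and the part of depth was not tested. The thinned share of Tet1-positive cells went from 88.7% without to 77.3% with auxin in replicate 2, from 72.6% to 58.0% in replicate 1, and from 88.1% (interval 79.2 to 94.1) to 84.8% (75.0 to 91.9) in replicate 3, where the intervals overlap. The shares of other members with lower CPM after auxin did not all go the same way, as that of Tet2 was 16.3% and 18.1% in replicate 2, that of Dnmt3l 54.8% and 55.7% in replicate 3 and that of Dnmt3a 25% and 26.6% in replicate 3. The share of Dnmt3a and Dnmt3b in the 3 methyltransferases was 29.5%, 86.9% and 31.6% after auxin, against 31.0%, 89.6% and 37.8% in control cells.

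The remaining genes of the pathway were examined in the same fits. On the sums, with and without the block, 0 of the readers, base excision genes, partners, methyl donor genes and germline genes passed, and their medians lay between -0.08 and -0.01. Of the naive list, Klf5 and Klf4 passed with the block (2 of 13), and not with the disputed plates exchanged (adjusted p = 0.985 for both). The state markers were lower beside the members: with the block the medians were -0.27 over 13 naive, -0.39 over 11 formative and -0.26 over 7 ES cell genes tested, against -0.23 over the members. Without the block the medians were -0.07 for the naive, -0.48 for the formative and -0.14 for the ES cell genes. With plates as units the formative median was 0.06. The summed naive markers went from 2675 to 2562, 641 to 399 and 2713 to 2405 CPM in replicates 1, 2 and 3 and the summed formative markers from 277 to 132, 998 to 894 and 143 to 124 CPM. The summed ES cell markers went from 9375 to 8758, 3899 to 2400 and 7308 to 7905 CPM, and thus rose in replicate 3. With the disputed plates as annotated the formative sum of replicate 3 went from 139.9 to 156 CPM instead. The part of these markers in the member values was not tested. With plates as units, Prdm14 was at -1.11 (SE 0.19, adjusted p = 0.00910), Zfp281, a transcription factor that works with Tet1, at -0.41 (SE 0.09, adjusted p = 0.0295), Tdh at -0.71 (SE 0.08, adjusted p = 0.000267) and Hormad1 at -0.40 (SE 0.09, adjusted p = 0.0446). These were 2 of 18 partners, 1 of 15 methyl donor genes and 1 of 13 germline genes tested, and 0 of 12 readers and 0 of 14 base excision genes passed, where 0.889% of all genes were lower. With the disputed plates exchanged, Tdh passed (-0.58, adjusted p = 0.0382), while Prdm14 (-0.93, adjusted p = 0.0671), Zfp281 (-0.38, adjusted p = 0.0766) and Hormad1 (-0.26, adjusted p = 0.377) did not. Prdm14 was at 109, 5.34 and 116 CPM in control cells and 59.2, 2.00 and 69.8 CPM after auxin, lower in 3 of 3 replicates. With the disputed plates left out, Dnmt3b was lower after auxin in the same 3 replicates as well.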

How the data were processed

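Smart-SCRB libraries of 3 replicates were analysed. Per the labels and the study's methods, the authors removed adapters, aligned reads to mm10 and deposited UMI counts of genes in single cells, not normalized; the aligner, counting program and annotation are not given in the sources used here. The number of detected genes (a count), the percent of ERCC counts per cell and a saturation fraction per plate, deposited by the authors, were also read. Saturation lay between 0.283 and 0.314, 0.539 and 0.579, and 0.470 and 0.531 in replicates 1, 2 and 3. ERCC rows (92, with 4.84%, 3.55% and 2.32% of all UMIs) and 11 transgene rows were left out. Of 1536 wells, 1335 had more than 2600 detected genes. Plates took their condition from the annotation the authors deposited, which for 2 plates of replicate 3 (168 cells) differs from the source values of the paper, so these were left out and both placements were run as alternatives. The plates of replicate 1 are annotated by RAD21 state, and RAD21 positive was read as control and RAD21 negative as treated with auxin. On an auxin plate of replicate 2, 1 well carries the name of another auxin plate.

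Counts were summed per replicate and condition, per plate, or per group of cells, and tested over all genes with edgeR 4.0.16 (TMM, filterByExpr, quasi-likelihood test, Benjamini-Hochberg, threshold 0.05) in R 4.3.3, with DESeq2 1.42.0 as an alternative. The auxin test had no block and the score splits had the replicate as a block. Scores were means of standardised log2(CPM + 10) of cells thinned to 20000 UMIs with seed 1, which left out 27 cells. The replicate numbers pair the samples, since control and auxin cells of a number come from 1 repeat of the experiment. Their deviations from the group means correlated with 0.928, 0.881 and 0.791 over 15895 genes. Differences between the cultures and count tables would also give such values, so they are no test of the pairing. Tested on simulated data with 200 changed genes, the auxin test recovered 0% of 2-fold and 4-fold changes without the block and 73% and 93.5% with it, and the comparison of replicate 2 recovered 75.5% and 94%. The simulated counts had the same relative spread for every gene. In the simulated comparison of replicate 2, the replicates did not differ apart from the changed genes. The recovered shares are therefore not the power of these tests on the real data. Gene positions came from GENCODE M21, which held 52403 of 52636 identifiers. Python 3.11.15, numpy 2.4.6, scipy 1.17.1 and pandas 2.3.3 were used.

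The members and lists were chosen with earlier results of these data known. Named were the 8 members, Rad21, at most 4 genes per list and comparison with the smallest adjusted p past the threshold, and the 3 genes most like each member over plates; Sox2, Pou5f1, Gapdh, Fgf5 and Aire were named for their levels.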

Additional observations from a re-analysis of the deposited data

Results flagged for a closer look

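Among the 4 control plates of replicate 2, Dnmt3b was at 656 CPM on 1 plate and between 589 and 594 CPM on the other three, a gap large enough for Dixon's test at the 95% level. It was the only such value in 16 groups of plates checked. Chance gives about 1 such value in 20 groups, so 1 in 16 is near what chance gives. The plate still lay with its replicate: all 4 were over 10 times the highest plate of replicates 1 and 3.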

How the results depend on the processing

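Between replicate 2 and the others, 5 to 7 of the 8 members were called in every alternative, against 6 in the main fit. The 7, against replicate 1 alone, included Tet1 as a new call. Dnmt3l (0.95, adjusted p = 0.120) was lost with the disputed control plate of replicate 3 included. Under all alternatives, 513 member fold changes kept direction and side of the threshold, 33 turned sign, 16 newly passed and 6 no longer passed. With or without the replicate block edgeR called 0 members after auxin, DESeq2 with the replicate block 1 (Dnmt3b) and plates as units with the block 2 (Dnmt3b and Tet1). Either of the last 2 gave 3 (Dnmt3l as well) with the disputed plates as annotated and 0 with them exchanged, settings added after the data were seen. Dropping the pairing by replicate, the block of the score splits, turned Tet2 to 0.057 for the G1/S score, -0.040 for G2/M and 0.021 for formative, Dnmt3a to -0.16 for naive and Dnmt3l to -0.18 for formative, and changed no call of a member. For the G1/S score, 1 member (Uhrf1) was called in place of 0 with DESeq2 and without the filter on low counts, and 0 to 1 on leaving out a replicate, the 1 without replicate 2. Without the filter, 1 member was called for the naive score (Tet2) and 1 for the formative score (Dnmt3b).

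Leaving out a replicate gave both signs for several members. These were, after auxin, Dnmt1 (-0.062 to 0.022, and 0.022 with the replicate block without replicate 1) and Dnmt3a (-0.48 to 0.059, and 0.18 with the block without replicate 2). For G1/S they were Dnmt1 (-0.11 to 0.27), Dnmt3b (-0.23 to 0.17), Dnmt3l (-0.043 to 0.41) and Tet2 (-0.52 to 0.16), and for G2/M Dnmt3l (-0.32 to 0.15) and Tet2 (-0.13 to 0.38). For naive they were Dnmt3a (-0.0079 to 0.63), Dnmt3l (-0.17 to 0.61) and Tet1 (-0.051 to 0.28), and for formative Dnmt3a (-0.036 to 0.48), Dnmt3l (-0.38 to 0.66) and Tet2 (-0.53 to 0.17). In auxin-treated cells the sign turned for G1/S in Dnmt3l (-0.064) and Tet3 (0.33), for G2/M in Dnmt3l (0.022), for naive in Dnmt1 (-0.19), Dnmt3a (-0.19) and Uhrf1 (-0.078), and for formative in Dnmt1 (0.12) and Tet2 (0.024). DESeq2 turned Dnmt3b for G1/S (-0.011), unthinned scores turned Dnmt3l for G2/M (0.32) and formative (-0.14), and the outer groups of a 3-way split turned it for formative (-0.12). The cause was not tested.

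Numbers of genes called moved more. After auxin they went from 0 to 3 with the block, 2 to 32 with it on leaving out a replicate, 57 and 235 as given above, and with the disputed plates 98 and 297 as annotated against 2 and 8 exchanged. Between cultures 2761 became 1463 to 1625 without a plate of replicate 2 or the first of replicate 1, and 9883 without replicate 3. For G1/S, 0 became 44 (DESeq2), 67 (no filter), 20 and 23 (without replicates 1 and 2), 5 (auxin-treated cells) and 10 (unthinned score). For G2/M, 39 became 102, 176, 121 and 5 (without replicates 2 and 3), 59 and 12, and 0 without the block. For naive, 0 became 1 (DESeq2), 86 (no filter) and 6 (without replicate 2), and for formative 2, 41 and 1. Depth limits Tet3 and, in replicates 1 and 3, Dnmt3a, with 39 to 346 UMIs per sum outside replicate 2.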

Other observations

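The 2 plates of replicate 3 whose condition is in dispute were left out above. On the plate annotated as control (91 cells) Dnmt1 was at 146 CPM, Uhrf1 at 341, Dnmt3a at 27.8, Dnmt3b at 47.6, Dnmt3l at 150, Tet1 at 221, Tet2 at 76.8 and Tet3 at 11.8 CPM. On the plate annotated as auxin (77 cells) they were at 131, 340, 31.7, 26.9, 92.7, 170, 54.4 and 16.1 CPM in the same order. Dnmt3a and Dnmt3b were thus low and Tet2 high on both, as on the other plates of replicate 3, while Dnmt3l on the plate annotated as control lay within the range of the auxin plates of replicate 2.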
